A study of Mus musculus with 12 samples.

Results

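The genes described here were 10 serotonin receptor genes of the mouse, Htr1a, Htr1b, Htr1d, Htr1f, Htr2a, Htr2c, Htr4, Htr5a, Htr5b and Htr7, chosen as the rows of a table of read counts that carried these symbols. They were 10 of 33024 gene symbols in the table. All 10 passed the filter on low counts, which left 16059 genes for testing. The cortex of 12 C57BL/6 mice was sequenced, 7 controls (vehicle, with water in both bottles) and 5 ethanol-administered mice, which could choose between water and 20% (v/v) ethanol. In the drinking-in-the-dark paradigm, this access lasted 12 h per session for 35 days from an age of 30 days, and 14 days of abstinence followed. Drinking was voluntary, behavioural tests preceded the harvest in both groups, and the cortex was collected from saline-perfused animals without a named subregion.

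Total counts ranged from 31768076 to 40690223 in controls and from 32048723 to 42183029 in ethanol-administered mice, and the 10 receptor genes together had between 3540 and 7624 counts per mouse. The floor of detection, set at 3 counts, lay between 0.0695 and 0.0962 CPM, the unit of counts after TMM normalization and scaling for depth, so that Htr1d, Htr4 and Htr5b, which had 40 counts or fewer in at least 1 mouse, were measured with more counting error than Htr2a. The floor covers counting error only.

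Serotonin is released in the cortex by axons of the raphe nuclei of the brainstem, whose cell bodies lie outside it, so the cortex mainly holds the receptors and not the enzyme that makes the transmitter. The HTR1 receptors, and HTR5A, act through Gi/o proteins, which lower cyclic AMP and open potassium channels. HTR2 receptors act through Gq/11 and phospholipase C, and HTR4, HTR6 and HTR7 through Gs, which raises cyclic AMP. HTR5B is less well studied and is grouped below with its paralogue HTR5A.

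Of the 10 genes, 3 rose in ethanol-administered mice (Htr4, Htr5b and Htr7), 3 fell (Htr1b, Htr1d and Htr2a) and 4 were not called (Htr1a, Htr1f, Htr2c and Htr5a). A gene counted as called where its log2 fold change exceeded 0.5 in either direction and its Benjamini-Hochberg adjusted p lay under 0.05. These values come from the quasi-likelihood test of edgeR, fitted to all 16059 genes. Over all genes tested, 674 (4.20%) were called higher and 657 (4.09%) lower, together 1331 (8.29%). The values of every ethanol-administered mouse lay above those of every control for 3 of the 10 (Htr1a, Htr4 and Htr5b) and below them for another 3 (Htr1b, Htr1d and Htr2a), against 4.84% and 4.96% of all genes tested. The median log2 fold change of the 10 was -0.12, and that of all genes was 7.2e-05. In bulk tissue, fewer cells of a type and less RNA per cell cannot be told apart.

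**Figure D1:**
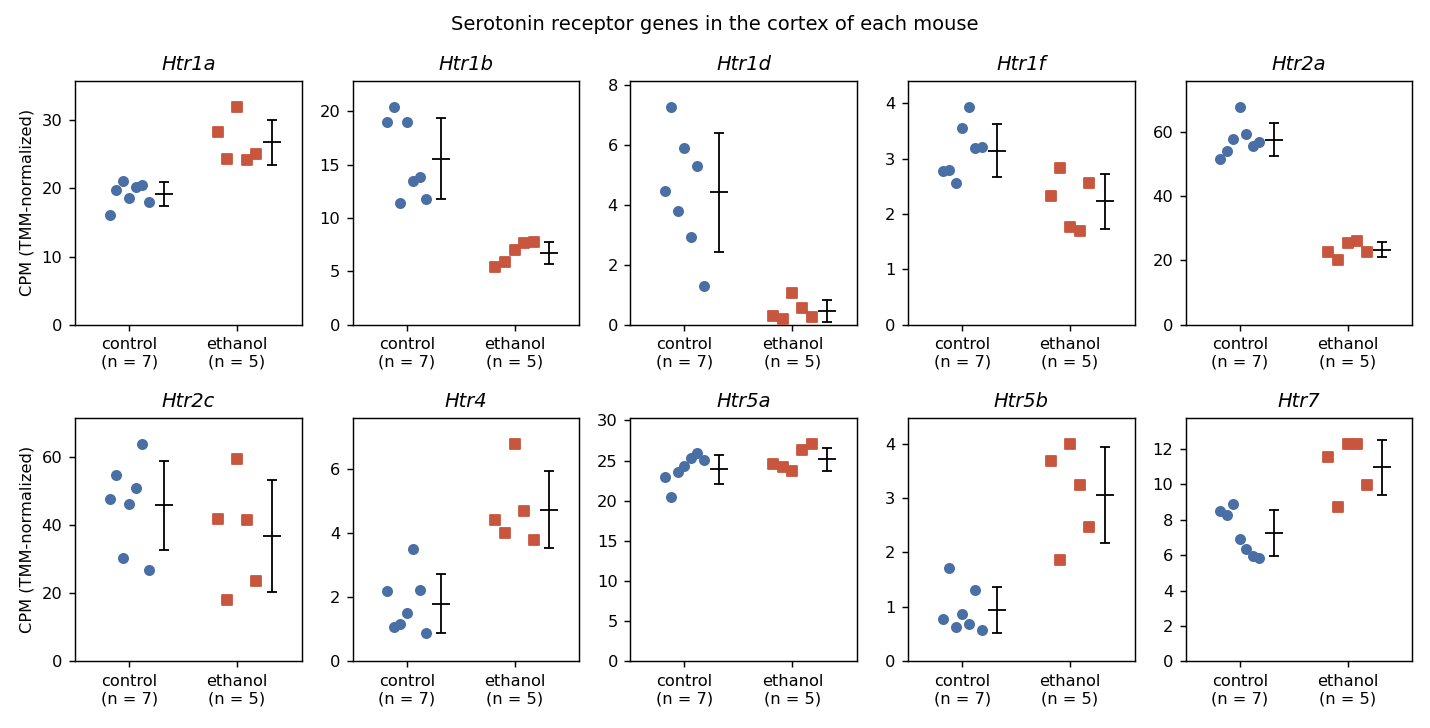
Normalized level (CPM, scaled after TMM normalization) of each receptor gene in 7 control mice (circles) and 5 ethanol-administered mice (squares), with the mean and SD of each group as a bar on the right; each panel has its own scale from 0. The groups do not overlap for Htr1a, Htr1b, Htr1d, Htr2a, Htr4 and Htr5b, and they overlap in the other 4 panels.

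The 300 bases before the annotated start of the canonical transcript are shown for the 3 genes that fell and for Htr7, which rose, since these windows place the genes whose levels differed and let their starts be compared. Each is written 5′ to 3′ on the strand of its gene, in GRCm39, and capitals mark a match to one of the 5 motifs named next. Htr1b lies on the minus strand (chr9:81515903-81516202), Htr1d on the plus strand (chr4:136150535-136150834), Htr2a on the plus strand (chr14:74877044-74877343) and Htr7 on the minus strand (chr19:36035178-36035477).
Htr1b: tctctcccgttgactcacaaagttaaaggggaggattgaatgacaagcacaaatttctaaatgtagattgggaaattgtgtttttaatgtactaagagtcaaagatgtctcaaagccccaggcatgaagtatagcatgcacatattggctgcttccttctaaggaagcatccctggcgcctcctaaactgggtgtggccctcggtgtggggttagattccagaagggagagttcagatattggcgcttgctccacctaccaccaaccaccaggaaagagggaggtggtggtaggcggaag
Htr1d: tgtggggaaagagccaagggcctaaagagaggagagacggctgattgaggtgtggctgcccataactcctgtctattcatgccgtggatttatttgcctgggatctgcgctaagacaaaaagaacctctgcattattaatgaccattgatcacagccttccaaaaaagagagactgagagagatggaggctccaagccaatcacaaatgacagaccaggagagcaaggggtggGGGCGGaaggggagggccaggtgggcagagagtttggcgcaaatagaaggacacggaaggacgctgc
Htr2a: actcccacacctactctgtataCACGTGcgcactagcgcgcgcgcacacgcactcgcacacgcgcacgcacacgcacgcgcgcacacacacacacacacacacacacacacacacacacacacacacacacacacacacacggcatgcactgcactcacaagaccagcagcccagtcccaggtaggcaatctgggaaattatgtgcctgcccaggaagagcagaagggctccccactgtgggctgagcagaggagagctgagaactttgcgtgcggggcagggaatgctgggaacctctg
Htr7: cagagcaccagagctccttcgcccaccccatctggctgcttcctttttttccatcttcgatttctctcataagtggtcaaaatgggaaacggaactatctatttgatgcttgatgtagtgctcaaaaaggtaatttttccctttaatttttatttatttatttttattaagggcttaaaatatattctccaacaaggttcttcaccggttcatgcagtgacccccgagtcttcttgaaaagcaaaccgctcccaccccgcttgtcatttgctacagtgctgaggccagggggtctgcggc

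The motifs were searched on both strands, and their background is the share of 15631 mouse promoters of the same length that hold them. The full cyclic AMP response element (CRE), written TGACGTCA, was in 2.00% of these promoters. Its core, TGACG, which every full element also contains, was in 23.7% of the promoters. The TATA box, written TATAAA, was found in 9.39% of them, and the GC box that binds SP1, written GGGCGG, in 47.8%. The E-box of basic helix-loop-helix factors, here CACGTG, was in 8.20%. The window of Htr1d held 1 GC box at position -67 from the start, and that of Htr2a held 1 E-box at -278. Neither the window of Htr1b nor that of Htr7 held any of the 5. Of the windows not printed, those of Htr1a, Htr5a and Htr5b held GC boxes, those of Htr1f and Htr5a held the CRE core, and that of Htr2c held none. The window of Htr4 was not analysed here. Neither a TATA box nor a full CRE was in any of the 9 windows searched. GC content was 48.0% for Htr1b, 52.3% for Htr1d, 60.0% for Htr2a and 44.0% for Htr7, with a median of 55.0% over all promoters.

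Among the Gi/o-coupled genes, Htr1b and Htr1d fell, and Htr1a lay higher in every ethanol-administered mouse by less than the minimum fold change. Htr1b (minus strand of chromosome 9 from 81510344 to 81515902, 2 exons of which 1 is coding) encodes a receptor known on axon terminals, where it limits transmitter release. Its level in controls ranged from 11.4 to 20.4 CPM with a median of 13.9, and it was 5.42, 5.88, 6.98, 7.65 and 7.75 CPM in the 5 ethanol-administered mice. All 5 lay below the lowest control. The means were 15.6 ± 3.79 CPM (SD, n = 7) and 6.74 ± 1.05 CPM (SD, n = 5), and the log2 fold change was -1.21 (SE 0.16, edgeR adjusted p = 2.88e-05). Exons of the antisense gene D430036J16Rik cover 18.9% of the exon bases of Htr1b, and since the strand setting of the counting is not described, reads there cannot be assigned to one of the 2 genes.

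Htr1d (plus strand of chromosome 4 from 136150835 to 136172370, 3 exons of which 1 is coding) encodes a second terminal autoreceptor, closely related to HTR1B. Controls ranged from 1.28 to 7.26 CPM (40 to 237 counts), with a median of 4.48 CPM. The 5 ethanol-administered mice had 0.278, 0.187, 1.04, 0.546 and 0.243 CPM, which rest on 12, 6, 35, 18 and 8 counts. The highest of them, mouse 3, lay below the lowest control, mouse 7. The means were 4.42 ± 1.98 CPM (SD, n = 7) and 0.460 ± 0.355 CPM (SD, n = 5), and the log2 fold change was -3.27 (SE 0.43, 95% interval -4.18 to -2.36, edgeR adjusted p = 3.32e-05). Of the 10 genes, Htr1d had the largest log2 fold change in size. It fell further than Htr1b: the log2 ratio of Htr1b to Htr1d within a mouse was 1.93 ± 0.61 in controls and 3.93 ± 0.82 in ethanol-administered mice, a difference of 2.00 (exact two-sided permutation test, p = 0.00253, adjusted p = 0.00758 over 4 receptor pairs, smallest possible p 0.00126).

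Htr1a (plus strand of chromosome 13 from 105580147 to 105584630, 1 exon) encodes the receptor that inhibits raphe neurons as an autoreceptor and cortical and hippocampal neurons as a heteroreceptor. It ranged from 16.2 to 21.0 CPM in controls (median 19.8), against 28.3, 24.3, 31.9, 24.2 and 25.0 CPM in ethanol-administered mice, without overlap. The means were 19.2 ± 1.70 (SD, n = 7) and 26.7 ± 3.34 CPM (SD, n = 5). Its log2 fold change of 0.48 (SE 0.08, 95% interval 0.31 to 0.65) had an edgeR adjusted p of 0.000462 but did not reach the minimum of 0.5. Without a minimum fold change, 1947 genes were called higher, Htr1a among them.

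Htr1f (minus strand of chromosome 16 from 64742111 to 64926217, 3 exons of which 1 is coding) encodes the receptor targeted by the migraine drug lasmiditan. Controls had 2.56 to 3.93 CPM (median 3.19) and ethanol-administered mice 2.32, 2.83, 1.76, 1.70 and 2.55 CPM, of which all but mouse 2 lay below the lowest control. The log2 fold change was -0.50 (-0.497 before rounding, SE 0.16, edgeR adjusted p = 0.0330), so that Htr1f missed the minimum of 0.5 by a margin far smaller than its standard error. With upper quartile normalization or with limma voom it was called lower. When each of the 12 mice was left out in turn, its edgeR adjusted p was under 0.05 for 7 of them, and it was 0.0511 to 0.0865 without control mouse 4 or 5 or ethanol-administered mouse 1, 3 or 4. With the replicate block it was 0.0795.

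Of the paralogues Htr5a and Htr5b, only Htr5b was called, and the difference between them was tested below. Htr5a (plus strand of chromosome 5 from 28047147 to 28063529, 2 coding exons) was among the steadiest of the 10, with a coefficient of variation of 7.56% in controls and 5.71% in ethanol-administered mice. Controls ranged from 20.5 to 25.9 CPM (median 24.3), and ethanol-administered mice had 24.6, 24.2, 23.7, 26.3 and 27.1 CPM. The log2 fold change was 0.07 (SE 0.07, 95% interval -0.06 to 0.21, edgeR adjusted p = 0.447), an interval that lies within the minimum fold change on both sides.

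Htr5b (minus strand of chromosome 1 from 121437397 to 121456241, 2 coding exons) rose. It ranged from 0.577 to 1.72 CPM in controls (18 to 56 counts, median 0.783 CPM) and was 3.69, 1.87, 4.00, 3.25 and 2.46 CPM in ethanol-administered mice (60 to 159 counts). The lowest of these, mouse 2, lay just above the highest control, mouse 2 of that group. The means were 0.939 ± 0.420 (SD, n = 7) and 3.05 ± 0.878 CPM (SD, n = 5), and the log2 fold change was 1.70 (SE 0.26, 95% interval 1.15 to 2.26, edgeR adjusted p = 0.000164). The log2 ratio of Htr5a to Htr5b within a mouse was 4.68 ± 0.61 in controls and 3.07 ± 0.47 in ethanol-administered mice, a difference of -1.61 (exact two-sided permutation test, p = 0.00379, adjusted p = 0.00758). The antisense gene Gm71055 covers 9.65% of the exon bases of Htr5b.

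**Figure D2:**
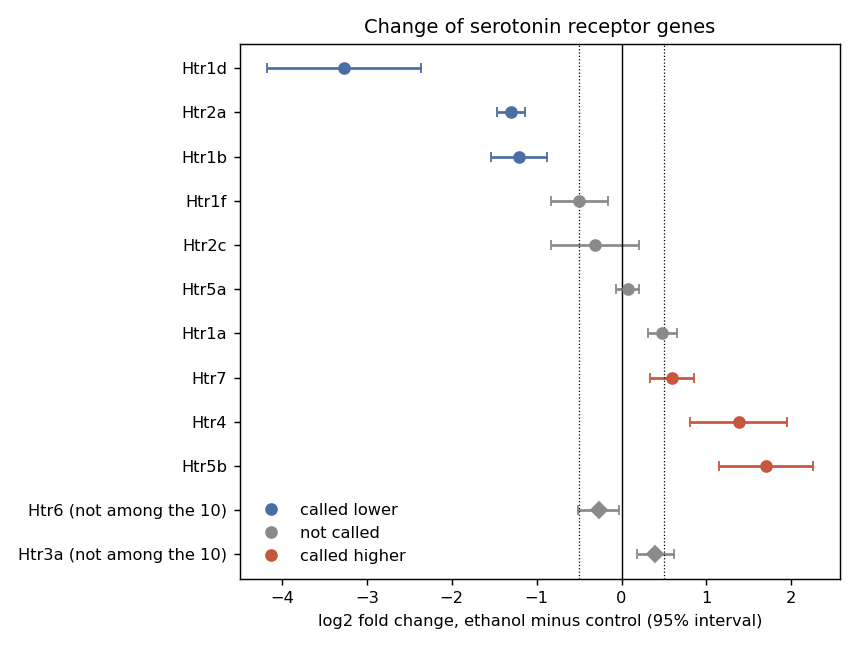
Log2 fold change of each receptor gene, ethanol-administered minus control mice, with its 95% interval from edgeR's quasi-likelihood test; circles are the 10 genes, diamonds Htr6 and Htr3a, and dotted lines the minimum of 0.5 in either direction. Htr1d lies farthest to the left at -3.27 with a wide interval, Htr2a at -1.30 has a narrow one, and Htr1a and Htr1f sit next to the dotted lines.

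Of the Gq-coupled genes, Htr2a fell and Htr2c was not called. Htr2a (plus strand of chromosome 14 from 74877344 to 74946934, 3 coding exons) encodes the main excitatory serotonin receptor of cortical pyramidal neurons, on which classical hallucinogens act. Controls ranged from 51.3 to 67.6 CPM with a median of 56.6, and ethanol-administered mice had 22.5, 20.1, 25.3, 25.9 and 22.7 CPM. Every ethanol-administered mouse lay below 26 CPM and every control above 51 CPM, and within each group the values were close together, with coefficients of variation of 8.98% and 10.2%. The log2 fold change was -1.30 (SE 0.08, 95% interval -1.46 to -1.14, edgeR adjusted p = 4.11e-09). By p-value, Htr2a ranked 14 of the 16059 genes, while the next of the 10 receptor genes, Htr1b, ranked 326.

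Htr2c (plus strand of chromosome X from 145745509 to 145980286, 6 exons of which 4 are coding) encodes the other brain HTR2 receptor, which is also very abundant in the choroid plexus. Controls ranged from 26.9 to 63.8 CPM (median 47.6). The 5 ethanol-administered mice had 41.7, 18.05, 59.4, 41.4 and 23.7 CPM, so that mice 2 and 5 lay below every control and the other three within the range of the controls. The log2 fold change was -0.31 (SE 0.25, 95% interval -0.83 to 0.21, edgeR adjusted p = 0.384), an interval that includes a fall larger than the minimum fold change. The log2 ratio of Htr2a to Htr2c was 0.38 ± 0.48 in controls and -0.54 ± 0.58 in ethanol-administered mice, a difference of -0.92 (exact two-sided permutation test, p = 0.0189, adjusted p = 0.0253). Without ethanol-administered mouse 3 the difference was -0.75 with an adjusted p of 0.0646 in the same exact test.

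Choroid plexus markers varied with Htr2c within the groups, while between the groups the marker score was higher in ethanol-administered mice (by 1.58 on average) and Htr2c was not. Over 7 of 9 listed choroid plexus genes that passed the filter, the score (mean log2 CPM) ranged from -0.69 to 1.06 in controls. It was 2.17, 0.58, 4.33, 3.00 and 0.02 in the ethanol-administered mice, so that mice 1, 3 and 4, which had the 3 higher Htr2c values of their group, also had the 3 higher scores. The same 3 mice had the 3 highest values of their group for Htr1d, Htr4, Htr5b and Htr7 as well, so that this order was not particular to Htr2c. The summed level of the 9 genes ranged from 8.27 to 23.6 CPM in controls and from 13.7 to 1021 CPM in ethanol-administered mice. Of the 7 genes tested, edgeR and DESeq2 called 5 higher and limma voom 2, and the largest changes were those of Ttr, which carries thyroid hormone in the cerebrospinal fluid (log2 fold change 5.52), and of Prlr, the prolactin receptor (2.90). Over the 7 controls alone, r between Htr2c and the score was 0.757 (exact permutation p = 0.0270), rho was 0.786 (exact p = 0.0480), and r without the 2 mice farthest from the median score was 0.473, so that the relation rests in part on those mice. This relation was chosen after the values had been seen. Without the 3 ethanol-administered mice of high score, Htr2c was called lower with a log2 fold change of -1.14 (SE 0.26, edgeR adjusted p = 0.0154). The 3 mice left out also had the 3 highest Htr2c values of their group, and the 2 that remained lay below every control, so that this call follows from which mice were left out and is given as a description. The antisense gene Gm61665 covers 2.3% of the exon bases of Htr2c.

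Of the Gs-coupled genes, Htr4 and Htr7 rose, while Htr6, which is not one of the 10, was not called, with a log2 fold change of -0.27. Htr4 (plus strand of chromosome 18 from 62456716 to 62629648, 6 coding exons) encodes a receptor that raises excitability and transmitter release in hippocampus and cortex. Controls ranged from 0.898 to 3.49 CPM (median 1.5), and ethanol-administered mice had 4.40, 3.98, 6.77, 4.67 and 3.77 CPM. All 5 lay above the highest control, mouse 5, whose value was close to the lowest of them. The means were 1.79 ± 0.917 (SD, n = 7) and 4.72 ± 1.20 CPM (SD, n = 5), and the log2 fold change was 1.38 (SE 0.27, 95% interval 0.81 to 1.95, edgeR adjusted p = 0.00134).

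Htr7 (minus strand of chromosome 19 from 35935818 to 36035177, 3 coding exons) encodes the Gs-coupled receptor known from thalamus, hypothalamus and hippocampus and tied to circadian rhythm. Controls ranged from 5.84 to 8.87 CPM (median 6.91), against 11.6, 8.71, 12.3, 12.3 and 9.94 CPM in ethanol-administered mice. Mouse 2 of the latter lay within the range of the controls and the other four above it. The means were 7.25 ± 1.28 (SD, n = 7) and 10.95 ± 1.57 CPM (SD, n = 5), and the log2 fold change was 0.60 (SE 0.12, 95% interval 0.34 to 0.86, edgeR adjusted p = 0.00215). With a minimum log2 fold change of 1, Htr7 was no longer called, nor was it with the replicate block, at 0.49 (edgeR adjusted p = 0.0113). The log2 ratio of Htr4 to Htr7 was -2.10 ± 0.77 in controls and -1.22 ± 0.24 in ethanol-administered mice, a difference of 0.88 (exact two-sided permutation test, p = 0.0303, adjusted p = 0.0303). That difference lost its call in 6 of the 12 analyses that left out one mouse, namely control 1, 2, 3, 4 or 7 or ethanol-administered mouse 3, with values between 0.75 and 0.90.

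Without the 3 ethanol-administered mice of high choroid plexus score, an analysis added after the values had been seen that leaves 2 mice in that group, edgeR called 0 of the 10 genes higher and 4 lower. Of the 16607 genes tested in that fit, 397 (2.39%) were called higher and 466 (2.81%) lower. Of the 10, Htr1a, Htr4 and Htr5b, 3 in all, were higher at an unadjusted p under 0.05. The edgeR log2 fold changes were then 0.36 for Htr1a (adjusted p = 0.0424, under the minimum of 0.5), 1.09 for Htr4 (adjusted p = 0.0851), 1.20 for Htr5b (adjusted p = 0.0509) and 0.36 for Htr7 (adjusted p = 0.217). Htr1b at -1.20, Htr1d at -4.34 and Htr2a at -1.43 kept their calls. The 3 mice left out had the 3 highest values of their group for Htr1d, Htr2c, Htr4, Htr5b and Htr7. The lost calls of Htr4, Htr5b and Htr7 thus follow in part from which mice were left out and are given as a description.

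Levels of different genes were compared per length, as RPKM (CPM divided by the exon length in kilobases). In controls Htr2a had the highest level, at 8.69 RPKM, followed by Htr2c (4.90), Htr1a (4.28), Htr1b (3.28), Htr5a (2.72), Htr7 (1.82), Htr1d (1.07), Htr1f (0.566), Htr5b (0.436) and Htr4 (0.196). In ethanol-administered mice the order of the mean RPKM was Htr1a (5.96), Htr2c (3.94), Htr2a (3.52), Htr5a (2.86), Htr7 (2.75), Htr1b (1.42), Htr5b (1.42), Htr4 (0.515), Htr1f (0.401) and Htr1d (0.111). Only between Htr2a and Htr2c and between Htr5a and Htr7 did the ranges of neighbours in the control order not overlap. In ethanol-administered mice this held between Htr7 and Htr1b, Htr5b and Htr4, and Htr1f and Htr1d, and other neighbours overlapped. Htr2a thus moved from place 1 to place 3, and Htr1d from place 7 to place 10. Places 2 and 3 were not clearly apart in ethanol-administered mice, since Htr2c lay above Htr2a in only 3 of 5. The places of Htr2c and Htr2a depended on the length used. With the longest transcript as length (4897 bases for Htr2c in place of 9341), Htr2c had 9.35 and 7.52 RPKM and came first in both groups. Htr2a was then at place 2 in controls and place 3 in ethanol-administered mice.

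**Figure D3:**
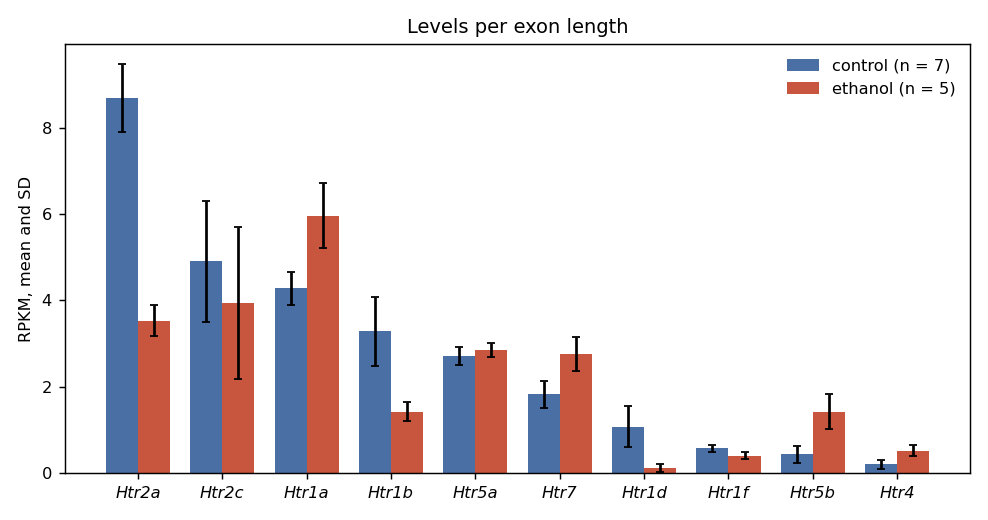
Level per exon length (RPKM, mean as bar and SD as error bar) of the 10 receptor genes in 7 control and 5 ethanol-administered mice, in the order of the control means. Htr2a is highest in controls at 8.69 RPKM and Htr1a in ethanol-administered mice at 5.96 RPKM. With the longest transcript as length, which is not shown, Htr2c comes first in both groups.

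Summed by coupling, the RPKM of the 6 Gi/o genes was 12.3 ± 1.22 in controls and 12.2 ± 1.04 in ethanol-administered mice. Within this near-equal sum, Htr1b and Htr1d were lower and Htr1a and Htr5b higher. The 2 Gq genes together had 13.6 ± 1.51 and 7.47 ± 2.05 RPKM, and Htr4 and Htr7, the 2 Gs genes among the 10, had 2.01 ± 0.309 and 3.26 ± 0.492 RPKM (SD, n = 7 and 5). Htr6 alone had 2.81 ± 0.318 and 2.33 ± 0.394 RPKM, and with it, a sum added after the values had been seen, the Gs genes had 4.82 ± 0.559 and 5.595 ± 0.855 RPKM, with ranges that overlapped. As a share of the RPKM of all 10, Gq genes made up 48.6% ± 2.04 in controls and 32.1% ± 4.16 in ethanol-administered mice, Gi/o genes 44.2% ± 1.35 and 53.6% ± 4.26, and Htr4 and Htr7 7.25% ± 1.23 and 14.3% ± 0.486. Htr2a alone went from 31.3% to 15.5% of this sum and Htr1a from 15.4% to 26.2%. The shares of all 10 genes add up to the whole, so that a lower share of one raises the others, and they depend on the length taken for Htr2c.

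Markers of other brain regions also differed between the groups. The cortex markers were detected in all mice, with Slc17a7, the vesicular glutamate transporter of cortical excitatory neurons, at 1955 ± 144 CPM in controls and 1906 ± 223 CPM in ethanol-administered mice. Of 10 cortex markers, 1 was called higher (Fezf2, a factor of deep-layer projection neurons, log2 fold change 0.60) and 2 lower (Foxp2, -1.21, and Lamp5, -0.51). All 15 striatum markers were called lower, the largest changes being those of the dopamine receptor Drd2 (-4.97) and the adenosine receptor Adora2a (-4.58). The summed level of the 15 ranged from 1520 to 3319 CPM in controls and from 448 to 555 CPM in ethanol-administered mice, and none was at 0 in all mice. Of 13 hippocampus markers, 9 were called higher and 0 lower by edgeR, DESeq2 and limma voom (1 was lower at an unadjusted p under 0.05), led by Dsp (4.97) and C1ql2 (4.29), both of the dentate gyrus, and their summed level ranged from 682 to 747 CPM in controls and from 763 to 823 CPM in ethanol-administered mice.

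Lists of further regions and of cell types were compared in the same way, with their summed levels in CPM. An unadjusted p under 0.05 was frequent over all genes, since a gene with an edgeR p of 0.0499 ranked 5863 of the 16059 tested. Of 8 interneuron genes, 0 were called higher and 3 lower by edgeR, DESeq2 and limma voom (7 were lower at an unadjusted p under 0.05). The largest changes were those of Npy (-0.77) and the vesicular GABA transporter Slc32a1 (-0.77), and the sum was 1025 to 1349 in controls and 830 to 896 in ethanol-administered mice. Gad2 (-0.63) was also called lower. Gad1 (-0.31), Pvalb (-0.31), Sst (-0.23), Vip (-0.21) and Lhx6 (0.03) were not called. Of 8 thalamus genes 2 were called higher and 1 lower, led by Tnnt1 (-1.15) and Ntng1 (1.14), with sums of 71.8 to 90.0 and 126 to 138. Of 6 claustrum genes 2 were called higher and 1 lower, led by Nr4a2 (1.86) and Synpo2 (-0.64), with sums of 139.9 to 162 and 179.6 to 288. Of 6 astrocyte genes 1 was called higher (5 were higher at an unadjusted p under 0.05), led by Gfap (0.77) and Aqp4 (0.27, not called). Their sums of 2751 to 3282 and 3153 to 3659 overlapped, but their scores (mean log2 CPM) of 7.52 to 7.68 and 7.81 to 7.94 did not. Of 6 oligodendrocyte genes all were lower at an unadjusted p under 0.05 and 2 were called lower, Mobp (-0.52) and the myelin protein gene Mbp (-0.50), with overlapping sums of 4285 to 5703 and 2872 to 5139. Without the 3 ethanol-administered mice of high choroid plexus score, 0 of these 6 were called by edgeR, and 0 had an unadjusted p under 0.05. That fit left 2 ethanol-administered mice. Mouse 2 had an oligodendrocyte score of 8.75, within the control range of 8.51 to 8.81, and mouse 5 had 8.26, below it. Of 5 microglia genes 0 were called by edgeR, DESeq2 or limma voom (4 were lower at an unadjusted p under 0.05), the largest change being that of Tmem119 (-0.32), and the sums of 248 to 273 and 222 to 245 did not overlap. Of 5 endothelial genes 1 was called lower, led by Ly6c1 (-0.64) and Cldn5 (-0.15, not called), with overlapping sums of 189 to 211 and 179 to 198. The part of these tissues and cell types in the receptor results was not tested.

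The score of the striatum list ranged from 5.61 to 6.80 in controls and from 3.26 to 3.71 in ethanol-administered mice, and that of the hippocampus list from 2.01 to 2.42 and from 3.63 to 4.45. Since the groups form separate clusters, each receptor gene was related to these scores within the 7 controls alone, which gave 20 relations. Htr1d followed the striatum score among controls: r was 0.990 (exact permutation p = 0.000397, adjusted p = 0.00794) and rho 0.964 (exact p = 0.00278, adjusted p = 0.0278), and r was 0.945 without the 2 mice farthest from the median. Without control mouse 1, 2, 3, 5 or 7, r was 0.971 to 0.992 with an exact permutation adjusted p of 0.0556, so that the relation no longer passed. With a control left out, the exact test has fewer possible values, and the lowest adjusted p of this relation was 0.0278. The loss thus does not show by itself that the relation rests on those mice. Control mouse 7 had the lowest score and the lowest Htr1d level, and control mouse 2 had the highest of both. For Htr5b, rho with the striatum score was also 0.964 (exact permutation, adjusted p = 0.0278), but r was 0.819 (exact permutation, adjusted p = 0.190). The relation of Htr5b was positive within controls, while between the groups the striatum score was lower and Htr5b higher in ethanol-administered mice.

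No other relation passed after adjustment. Htr1b had an r of 0.750 with the striatum score (exact permutation p = 0.0425, adjusted p = 0.225), and Htr2c had 0.764 (exact p = 0.0450, adjusted p = 0.225). For Htr2a, r with the striatum score was -0.094 (exact permutation p = 0.83, adjusted p = 0.921), and it ranged from -0.52 to 0.08 when each control was left out in turn. With the hippocampus score, r was 0.615 for Htr4, 0.489 for Htr1a, 0.333 for Htr5b and 0.163 for Htr7, with adjusted exact permutation p between 0.548 for Htr4 and 0.921 for Htr7 (n = 7). The hippocampus score varied little within the controls. The part of striatal or hippocampal tissue in the differences between the groups was not tested, and with scores that separate the groups completely, it and ethanol cannot be told apart.

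**Figure D4:**
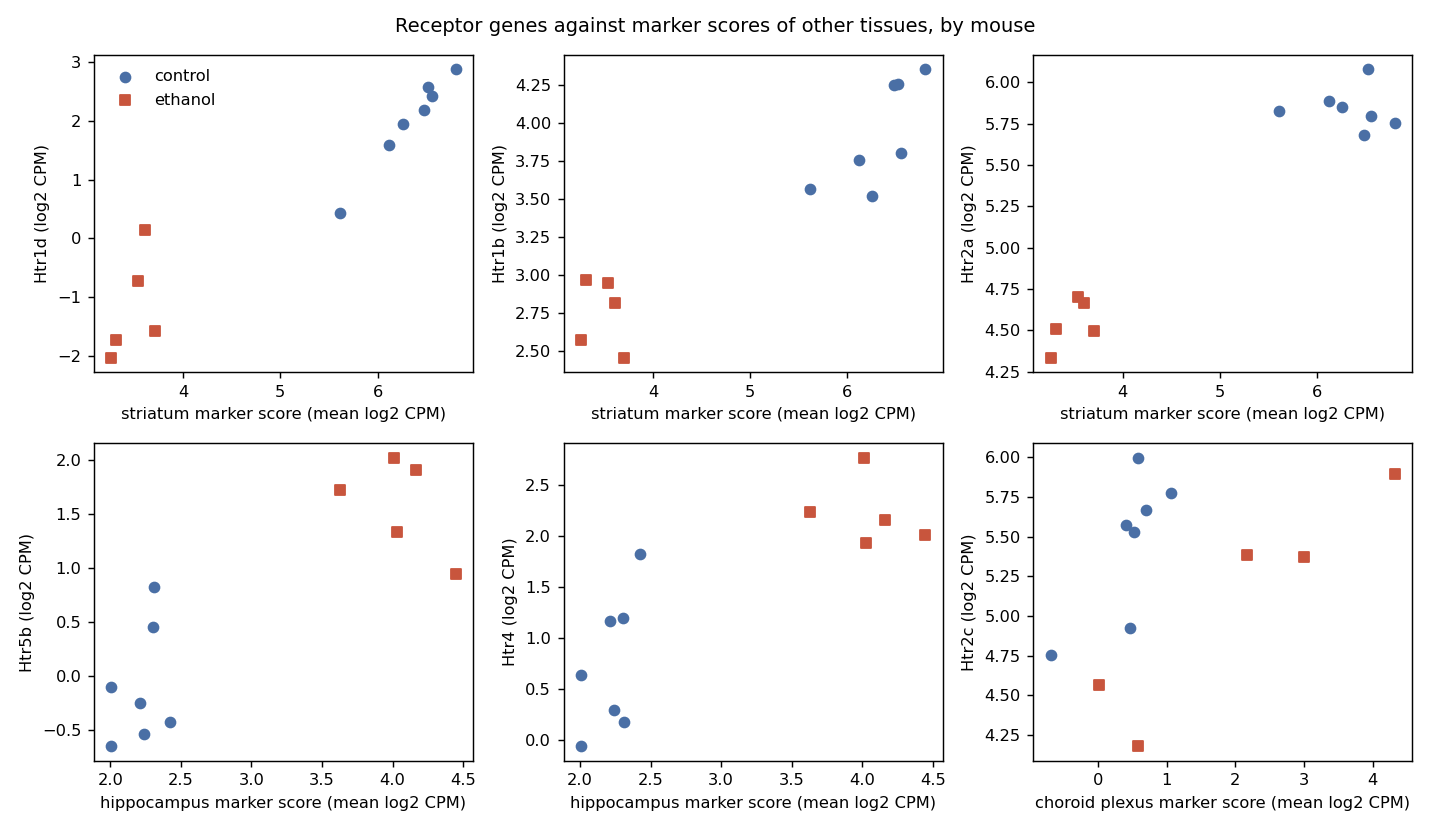
Level of a receptor gene (log2 CPM, y axis) against the marker score of another tissue (mean log2 CPM of its listed genes, x axis) in each control (circle) and ethanol-administered mouse (square). Within the controls Htr1d rises with the striatum score (r = 0.990) and Htr2a does not (r = -0.094); in the last panel, ethanol-administered mice 1, 3 and 4 have both higher choroid plexus scores and more Htr2c than mice 2 and 5.

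Neither of the 2 other serotonin receptor genes that were tested was called by edgeR, DESeq2 or limma voom over all 12 mice. Htr6, whose receptor also couples to Gs, had 8.61 ± 0.973 CPM in controls and 7.14 ± 1.21 CPM in ethanol-administered mice (log2 fold change -0.27, edgeR adjusted p = 0.0953). Without the 3 ethanol-administered mice of high choroid plexus score, it was called lower, at -0.53 (edgeR adjusted p = 0.0400). The 3 mice left out had the 3 highest Htr6 values of their group and 2 mice remained, so that this call follows in part from which mice were left out. Htr3a, a subunit of the serotonin-gated ion channel found in interneurons, had 6.26 ± 0.813 and 8.23 ± 0.814 CPM (log2 fold change 0.40, edgeR adjusted p = 0.0110, under the minimum of 0.5). Htr2b, at 0 to 0.152 CPM per mouse, and Htr3b, with 2 counts in 1 mouse, did not pass the filter (exact two-sided permutation p = 0.120 and 0.417).

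Of 14 genes of serotonin synthesis, transport and breakdown, 12 were tested, of which 1 was called higher and 1 lower, and their median log2 fold change was -0.07. Both genes called encode low-affinity transporters that take up monoamines. Slc29a4, the plasma membrane monoamine transporter, rose from 9.85 ± 2.27 to 19.8 ± 5.95 CPM (log2 fold change 1.01, SE 0.17, edgeR adjusted p = 0.000405), and Slc22a3, organic cation transporter 3, fell from 3.29 ± 0.714 to 1.73 ± 0.295 CPM (log2 fold change -0.92, SE 0.18, edgeR adjusted p = 0.00105). Tph2, the neuronal enzyme of serotonin synthesis, was low, at 0.644 ± 0.289 CPM in controls and 1.05 ± 0.386 CPM in ethanol-administered mice (log2 fold change 0.70, edgeR adjusted p = 0.137). Slc6a4, the serotonin transporter, was at most 0.147 CPM in any mouse and was not tested. The raphe factors Fev (at most 0.128 CPM in a control and 0 in every ethanol-administered mouse) and En1 (0 in every control and at most 0.0464 CPM in an ethanol-administered mouse) had few or no counts in both groups and were not tested.

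Among the partners of the receptors inside the cell, calls were found for the Gs pathway and for 1 receptor kinase. Of 8 Gi/o proteins and potassium channel subunits, edgeR, DESeq2 and limma voom each called 0 (median log2 fold change 0.06), with 3 of 8 at an unadjusted p under 0.05, all of them higher. Of 6 genes of the Gq pathway, each tool also called 0 (median 0.01), with 1 higher and 2 lower at an unadjusted p under 0.05. Such a p was frequent over all genes, since Tph2, with an unadjusted edgeR p of 0.0499, ranked 5863 of the 16059 tested. Neither count is thus read as a result about its list. Of 8 Gs and Golf proteins and adenylyl cyclases, 2 rose and 2 fell (median -0.07): the calcium-stimulated cyclases Adcy1 (0.65, edgeR adjusted p = 0.00071) and Adcy8 (1.14, adjusted p = 1.46e-09) rose, while Gnal, which encodes the Golf subunit (-1.07, adjusted p = 1.03e-07), and Adcy5 (-1.41, adjusted p = 1.84e-07), both abundant in striatum, fell. Adcy5 is also 1 of the 15 striatum markers. Of 7 genes whose proteins bind these receptors or end their signalling, Grk3, a receptor kinase, rose (0.64, edgeR adjusted p = 1.64e-05) and the other six were not called (median of the list -0.13).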

How the data were processed

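RNA extraction and sequencing were done by BGI. For the authors' read processing, FastQC 0.11.9 served for quality control, STAR for alignment to GRCm39 with Gencode Release 28 genes, featureCounts for counting and DESeq2 for their comparison. How featureCounts treated strand and reads with several matches is not given in the sources used here. The authors deposited counts per gene symbol without normalization. Values of 61 symbols are fractional, and the sources used here do not say why. The deposited values were therefore handled like expected counts and rounded, and 0 columns were left unmatched to a mouse.

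Genes were kept with filterByExpr and normalized with TMM factors (0.982 to 1.02), and the groups entered edgeR's quasi-likelihood test without covariates, with p-values adjusted by Benjamini-Hochberg over all genes tested (R 4.3.3, edgeR 4.0.16, limma 3.58.1). The call thresholds are those of the study. The standard error is the log2 fold change divided by the square root of its F statistic. Log2 CPM values used a prior count of 2, and RPKM the length of all annotated exons of a gene. Ratios of receptor pairs and receptors outside the filter entered an exact permutation test, two-sided, over 792 splits of 12 mice into 5 and 7, and relations to marker scores with an exact permutation test within controls. Gene positions, lengths and promoters are from GRCm39 with a newer Gencode annotation than that of the authors.

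All 10 receptor genes are named. Of the pathway lists, genes that were called, other serotonin receptors, Tph2 and Slc6a4 are named, and of the marker lists used beside a result, genes at 0 and those with the largest changes. For each called receptor gene the 2 genes most like it are named. Slc17a7 was named as a cortex marker, Lamp5 as a called one, and all 8 interneuron genes were named. The members and lists were chosen with earlier results of these data known. Alternatives were DESeq2 1.42.0, limma voom, other normalization factors, filters and fold change minimums, the replicate number as a block, other prior counts and lengths, and each mouse left out in turn. The fits were tested on simulated data. P-values measure the spread between mice of this one experiment.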

Additional observations from a re-analysis of the deposited data

Results flagged for a closer look

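In 4 of 50 comparisons of a group's mice, 1 mouse lay far from the rest of its group by Dixon's test, where chance at 1 in 20 would give 2.5. The total count was 40690223 in control mouse 5, against 32356913 in the next control, and 42183029 in ethanol-administered mouse 1, against 33313165 in the next of its group. The choroid plexus marker score was -0.69 in control mouse 7 (next lowest 0.41), and the endothelial score was 4.98 in control mouse 5 (next lowest 5.13). For none of the 10 receptor genes was a mouse this far from its group.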

How the results depend on the processing

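No log2 fold change of the 10 receptor genes changed its sign under any alternative, and Htr2a and Htr1b were called lower in every fit. Htr1d was called lower in every fit that tested it; with at least 10 counts required in every mouse it was not tested. Htr1f was called lower with upper quartile factors (-0.50) and limma voom (-0.52). Without a minimum fold change, 1947 genes were called higher and 1863 lower, and Htr1a (0.48) and Htr1f (-0.50) were called; with a minimum log2 fold change of 1, 242 and 282 genes were called and Htr7 (0.60) was not. Without the 3 ethanol-administered mice of high choroid plexus score, 397 genes and 0 of the 10 were called higher. Htr4 (1.09), Htr5b (1.20) and Htr7 (0.36) then lost their calls and Htr2c (-1.14) gained one. For each of these genes the 3 mice left out had the 3 highest values of their group, so that these changes follow in part from that choice. In that group 2 mice were left, both below every control in Htr2c.

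When each mouse was left out in turn, the log2 fold change ranged from 0.41 to 0.51 for Htr1a and from -0.60 to -0.42 for Htr1f. Htr1a was called without control mouse 3 or ethanol-administered mouse 2, 4 or 5, at 0.50 to 0.51, and Htr1f without control mouse 1, 2 or 3 or ethanol-administered mouse 2 or 5, at -0.60 to -0.52. It ranged from -0.55 to -0.15 for Htr2c, 1.21 to 1.63 for Htr4, 1.59 to 1.92 for Htr5b and 0.55 to 0.66 for Htr7. The ratio of Htr2a to Htr2c ranged from -1.09 to -0.75 and that of Htr4 to Htr7 from 0.75 to 1.08. Between 0 and 1 relations to a marker score passed, with r between 0.971 and 0.995 for Htr1d and the striatum score and an exact permutation adjusted p of 0.0556 without control mouse 1, 2, 3, 5 or 7. With the longest transcript as length, Htr2c had 9.35 and 7.52 RPKM.

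Control and ethanol-administered mice share the replicate numbers 1 to 5, but the deviations of same-numbered mice correlated between -0.11 and 0.02 and 0 of 5 were most alike under their own number, so that the numbers were not taken as pairs. With the replicate block, Htr7 was not called, at 0.49 (edgeR adjusted p = 0.0113), and the other five calls were kept. The cause of these changes was not tested. Htr1d, Htr4 and Htr5b rest on few counts, which limits their precision.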

Other observations

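For each receptor gene that was called, the 2 genes whose log2 CPM followed it most closely over 12 mice, after the group means were removed, are given with Pearson's r as a description. For Htr1b these were Glipr2 (0.914) and Mindy4b-ps (0.896), for Htr1d D430036J16Rik (0.935) and Necab2 (0.922), and for Htr2a Grpr (0.898) and Odf4 (0.858). For Htr4 they were Gpalpp1 (0.929) and Pcdh17 (0.928), for Htr5b Id4 (0.909) and Lhfpl3 (0.906), and for Htr7 Trappc5 (0.938) and Ubald2 (0.922). D430036J16Rik, the gene most like Htr1d, is the antisense gene that overlaps exons of Htr1b. They were the 2 highest of all genes tested for each receptor gene, so that a high r is in part a result of the search, and the points share libraries.

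Between the receptor genes themselves, r over 12 mice after removal of group means was highest for Htr2c with Htr5b (0.817), Htr1d with Htr2c (0.794) and Htr1d with Htr5b (0.759), and lowest for Htr1f with Htr7 (-0.795). Htr1d, Htr2c and Htr5b thus varied together within groups, although between the groups Htr1d fell and Htr5b rose. For Htr2a, r with the other nine lay between -0.25 and 0.42.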
